A study of Homo sapiens with 12 samples.

Results

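The G2 and mitosis genes are 44 genes whose products carry a cell from the end of DNA replication through chromosome segregation and cytokinesis. The members were taken by name from the deposited count tables, which hold 55765 genes. All 44 had enough reads to be tested, among 17727 genes tested in all. The cells were T47D, an established luminal line from a breast tumour with estrogen and progesterone receptors. PRMT1, the main enzyme that places asymmetric dimethylarginine on proteins, was depleted with an siRNA (siPRMT1), and a control siRNA (siCT) served as its comparison. Cells of both kinds were treated for 6 h with R5020, a synthetic progestin, at 10 nM, or with ethanol, in which it is dissolved. Each siRNA with each treatment makes 1 of 4 groups, and each group has 3 libraries that the labels call biological replicates. All groups share 1 cell line and an siRNA transfection. The labels used here name no rescue with PRMT1 and no measure of cell cycle phase.

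In a dividing cell, cyclin B1 and its kinase CDK1 start mitosis, the CDC25 phosphatases switch CDK1 on, and WEE1 holds it off. The genes for these proteins and for the spindle, the kinetochores and the spindle checkpoint are silent early in the cycle, when the DREAM complex sits on a promoter element called the CHR (cell cycle genes homology region). In S and G2 phase the transcription factor B-MYB, the product of MYBL2, joins the MuvB core on the same promoters, recruits FOXM1, and the genes are switched on. MYBL2 itself is a target of E2F factors, as are the genes of DNA replication. In breast cancer cells, progestins are known to drive cells into a cycle and later to halt them, and transcripts of this group are the core of proliferation signatures used for breast tumours.

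Promoter windows from 250 bases before to 50 bases after a transcription start were available from RefSeq (GRCh38.p14) for 36 of the 44 members, with 47 windows in all. TTK, BUB3, UBE2C, AURKA, BIRC5, TPX2, FOXM1 and WEE1 had no entry. The windows were searched on both strands for 3 spellings of the CHR (TTTGAA or TTTAAA or TTCGAA), for the CCAAT box bound by NF-Y, for an E2F core (GGCGGGA) and for a palindromic progesterone response element. The letters of different motifs do not overlap in the windows shown here. Of the 36 members, 33 held a CHR and 29 a CCAAT box, and 27 held both. By window, 78.7% of the 47 member windows held a CHR, against 25.1% of 35116 windows of all genes. The CCAAT box was in 72.3% of member windows against 34.6%, the E2F core in 29.8% against 15.4%, and the progesterone response element in 0 of the 47 against 0.39%. The 3 members without a match to these CHR spellings in any window were MYBL2, AURKB and CCNA2. Other spellings of the CHR were not searched. Windows of 5 members are given 5′ to 3′ along the gene's strand: MYBL2 and AURKB, the members that fell with siPRMT1, CCNB1 and BUB1, which rose with it, and KIF23, which rose with R5020. Capitals mark matches to the CHR, the CCAAT box (read as ATTGG on the other strand) and the E2F core.
MYBL2 (chr20:43666864-43667163, plus strand): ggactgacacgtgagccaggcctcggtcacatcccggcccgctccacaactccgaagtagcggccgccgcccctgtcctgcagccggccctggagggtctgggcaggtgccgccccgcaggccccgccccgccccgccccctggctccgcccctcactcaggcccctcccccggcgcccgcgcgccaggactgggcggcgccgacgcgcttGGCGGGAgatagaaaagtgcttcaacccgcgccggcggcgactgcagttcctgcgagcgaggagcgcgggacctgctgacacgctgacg
AURKB (chr17:8210176-8210475, minus strand): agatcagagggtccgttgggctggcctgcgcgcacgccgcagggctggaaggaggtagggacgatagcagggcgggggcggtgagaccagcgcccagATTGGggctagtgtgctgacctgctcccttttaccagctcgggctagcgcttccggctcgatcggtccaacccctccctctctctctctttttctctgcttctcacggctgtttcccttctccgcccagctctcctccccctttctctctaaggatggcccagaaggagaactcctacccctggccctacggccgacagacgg
CCNB1 (chr5:69166900-69167199, plus strand): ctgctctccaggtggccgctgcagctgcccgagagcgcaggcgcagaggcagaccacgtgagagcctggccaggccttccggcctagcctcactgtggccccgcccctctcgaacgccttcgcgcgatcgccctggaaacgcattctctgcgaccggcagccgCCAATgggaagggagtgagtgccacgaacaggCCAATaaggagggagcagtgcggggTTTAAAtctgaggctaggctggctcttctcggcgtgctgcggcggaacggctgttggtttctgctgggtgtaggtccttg
BUB1 (chr2:110678014-110678313, minus strand): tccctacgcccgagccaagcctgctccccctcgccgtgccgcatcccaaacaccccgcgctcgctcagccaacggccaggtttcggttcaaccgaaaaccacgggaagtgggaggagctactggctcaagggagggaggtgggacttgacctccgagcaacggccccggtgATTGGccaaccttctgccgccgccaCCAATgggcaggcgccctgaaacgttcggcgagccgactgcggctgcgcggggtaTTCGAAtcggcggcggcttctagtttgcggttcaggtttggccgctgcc
KIF23 (chr15:69414099-69414398, plus strand): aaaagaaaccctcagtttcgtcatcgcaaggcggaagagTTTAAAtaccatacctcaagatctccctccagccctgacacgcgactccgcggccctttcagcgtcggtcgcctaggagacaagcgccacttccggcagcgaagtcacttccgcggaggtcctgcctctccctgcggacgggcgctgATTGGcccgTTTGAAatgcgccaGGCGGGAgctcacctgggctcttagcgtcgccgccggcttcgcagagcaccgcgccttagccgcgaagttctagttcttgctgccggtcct

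With positions counted from the transcription start, the MYBL2 window had an E2F core at -39 and no other match. The AURKB window, the first of 2 that overlap, had a CCAAT box on the other strand at -153. An ATG lies just past the start used for AURKB, and its reading frame runs without a stop to the end of the window. This window may thus lie around the coding start, so the letters searched depend on the start listed. CCNB1 had CCAAT boxes at -87 and -55 and a CHR at -30. BUB1 had CCAAT boxes at -79 and -54 and a CHR just past the start, at 2. KIF23 had matches of all 3 kinds, with CHR matches at -211 and -55. A match is a run of letters, not a measured binding site, and a window without a match says nothing about the factor.

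Total counts per library ran from about 26783500 to 34120900, and the members' own counts ran from 37 to 4673 per library. In CPM, the count divided by the library size after TMM scaling, PRMT1 stood between 29.7 and 50.7 in the 6 siCT libraries and between 6.89 and 8.38 in the 6 siPRMT1 libraries, so that it was 4.56-fold lower in ethanol and 6.07-fold lower in R5020. All 9 luminal markers checked were expressed, from 43.9 CPM for ESR1 up to 7734 CPM for KRT18. Basal, stromal and leukocyte markers stayed at or under 2.48 CPM, apart from COL1A1 at 28.4 to 78.9 CPM, and PECAM1 was not analysed here. Among the siCT libraries, ethanol replicate 3 and R5020 replicate 1 were unlike the rest. In this pair, mitochondrially encoded genes took 59.3% and 52.4% of counts and MALAT1 stood at 1519 and 948 CPM. The other 10 libraries had 31.3% to 38.3% and 250.7 to 486 CPM. In the same pair, 27 and 31 of the 44 members lay below both other libraries of their group. The members' median log2 deviation from those libraries was -0.36 and -0.28, against -0.03 and -0.04 over all genes. Members also shifted outside the pair: 24 of 44 lay above both others in siCT ethanol replicate 2, siCT R5020 replicate 3 and siPRMT1 R5020 replicate 2. The spread between libraries also differed between the siRNAs: the common biological coefficient of variation was 0.326 and 0.213 in the siCT groups and 0.0463 and 0.0753 in the siPRMT1 groups, in ethanol and R5020. Members whose call rests on the pair are also given without it, and the part of these library differences in the results was not tested.

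With PRMT1 depleted, members were called in both directions. In ethanol, 10 of the 44 were called higher with siPRMT1 (22.7%, against a background of 13.6% of all genes tested) and 2 were called lower (4.55%, against 19.2%). Called means an adjusted p under 0.05 by edgeR's quasi-likelihood test. Across both directions 32.8% of all genes were called in this comparison. Those called higher were cyclin A2 and B1 and CDK1 (CCNA2, CCNB1, CDK1), the checkpoint kinases TTK and BUB1, the motors CENPE, KIF11 and KIF4A, and the spindle proteins NUSAP1 and HMMR. MYBL2 and AURKB were called lower. The median log2 fold change over the members was 0.26, against -0.07 over all genes. All 3 siPRMT1 libraries lay above all 3 siCT libraries for 20 members and below them for 2, against 20.9% and 23.8% of all genes. These are bulk samples, so a larger share of cells in G2 and mitosis and more of this RNA per cell cannot be told apart.

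In R5020 the same depletion gave fewer calls in the fit over all 12 libraries. BUB1 and CCNB1 were called higher and MYBL2 and AURKB lower, that is 2 of 44 each way, against 11.5% and 14.2% of all genes and 25.7% in either direction. The members' median was 0.09, against -0.03. The libraries were apart upward for 12 members and downward for 4, against 25.6% and 26% of all genes. That ethanol gave more calls depended on the fit. Fitting only the groups compared called 5 members higher and 1 lower in ethanol, against 7.54% and 12% of all genes. In R5020 it called 7 and 3, against 16.3% and 18.9%. DESeq2 called 18 higher and 2 lower in ethanol, with 31.7% of all genes in either direction. In R5020 it called 3 and 2, with 27.1%. Whether the effect of siPRMT1 differed between ethanol and R5020 is the interaction, given further on: it was called for 0 members.

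**Figure D1:**
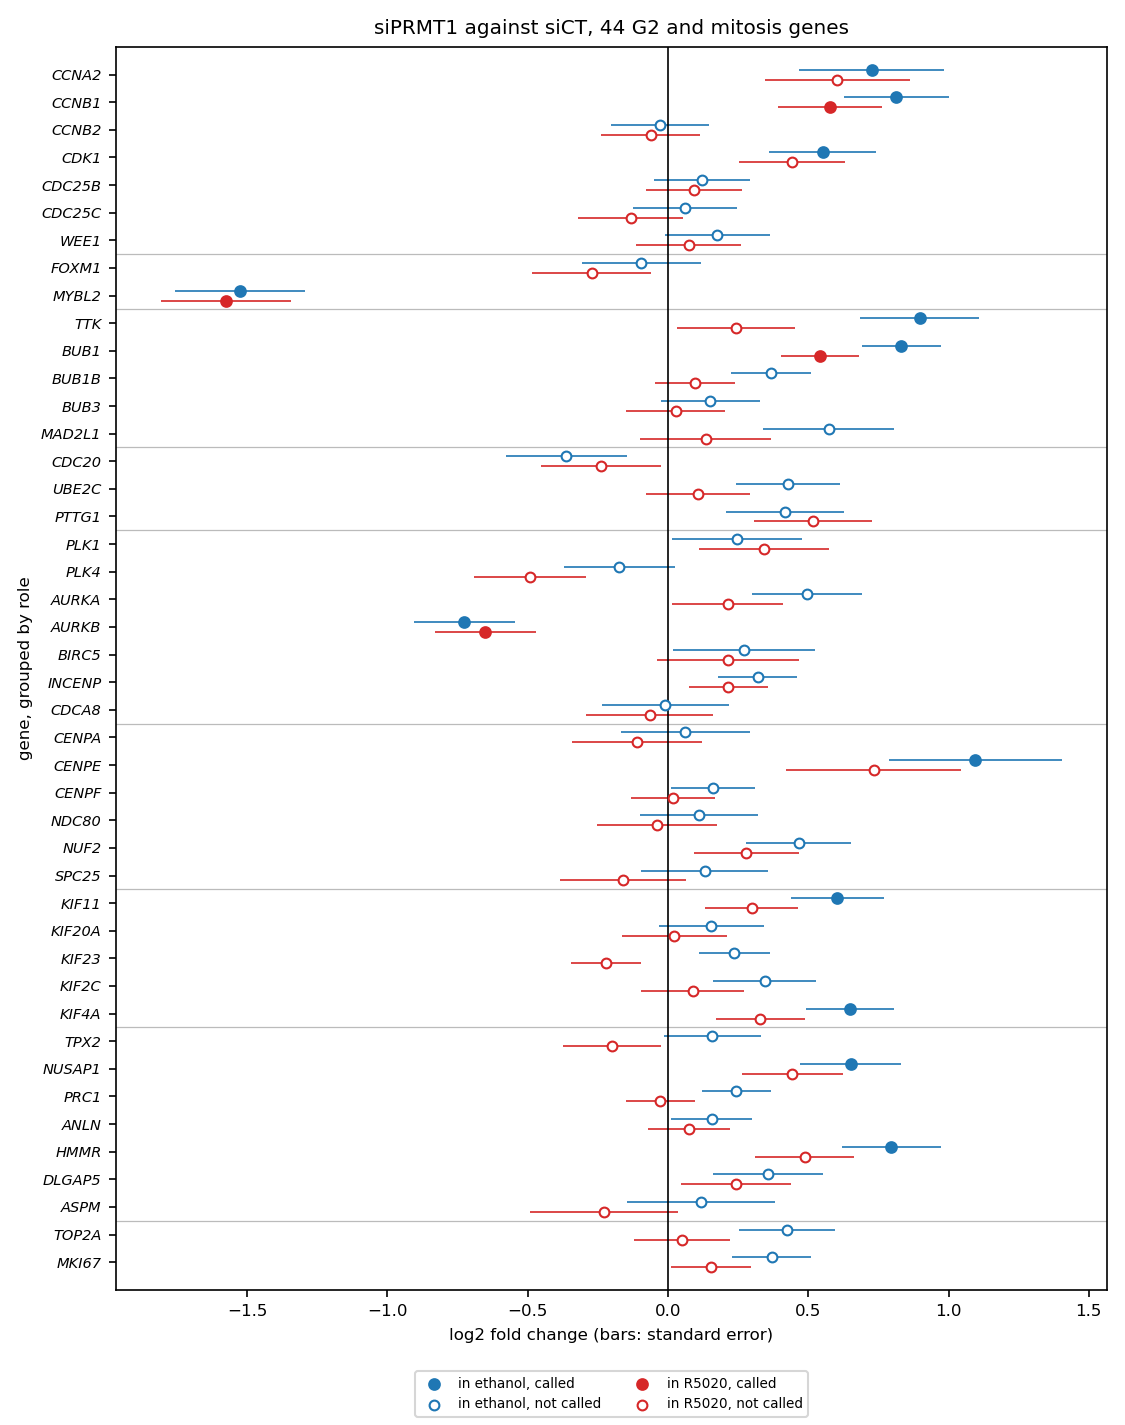
Log2 fold change of siPRMT1 against siCT for the 44 genes, grouped by role from cyclins at the top to chromosome structure at the bottom, in ethanol (blue) and in R5020 (red); bars are standard errors over 3 against 3 libraries and filled points passed edgeR's test. MYBL2 lies at -1.53 and -1.58, apart from all others, and in ethanol 37 of 44 points lie above 0.

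The cyclins and CDK1 were among the members that rose. CCNB1, the cyclin whose build-up starts mitosis, stood in ethanol at 61.1, 90.8 and 54.8 CPM in the siCT libraries and at 124, 112 and 127 CPM in the siPRMT1 libraries. With R5020 it stood at 59.2, 69.7 and 77.5 CPM in siCT and at 92.8, 109.6 and 106 CPM in siPRMT1. Each siPRMT1 library lay above each siCT library of its arm. The log2 fold change was 0.81 ± 0.19 (SE; 1.76-fold, edgeR adjusted p = 0.00634) in ethanol and 0.58 ± 0.19 (1.49-fold, 0.0375) in R5020. CDK1, the kinase that cyclin B1 activates, read 10.98, 18.97 and 13.9 CPM in siCT and 20.1, 21.6 and 22.5 CPM in siPRMT1 with ethanol. In R5020 its libraries read 12.7, 13.3 and 16.5 CPM and 17.9, 21.9 and 17.99 CPM. The groups did not overlap in either arm, but in the fit over all 12 libraries only ethanol gave a call (0.55 ± 0.19, edgeR adjusted p = 0.0408, against 0.44 ± 0.19 and 0.102 in R5020). Fitting only the groups compared gave the reverse, with CDK1 called in R5020 (0.43, edgeR adjusted p = 0.0462) and not in ethanol (0.56, 0.104). CCNA2, whose cyclin acts from S phase to early mitosis, was called in ethanol at 0.73 ± 0.26 (edgeR adjusted p = 0.046) and not in R5020 at 0.60 ± 0.26 (0.102), where it was called without the pair (0.38, 0.0181). CCNB2, the other B-type cyclin in the list, was at -0.03 ± 0.18 and -0.06 ± 0.18.

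The member enzymes that set CDK1 activity, WEE1, CDC25B and CDC25C, were not called in any comparison of the fit over all groups. PKMYT1, a kinase outside the list of members that restrains CDK1, was called lower with siPRMT1 in ethanol, as given further on. WEE1, the kinase that keeps CDK1 inactive, read 41.9, 68.6 and 68.2 CPM in siCT and 66.4, 64.5 and 70.7 CPM in siPRMT1 with ethanol, and 63.4, 46.2 and 52.3 CPM in siCT and 54.5, 61.6 and 54.3 CPM in siPRMT1 with R5020. CDC25B, a phosphatase that switches CDK1 on, read 38.5, 26.8 and 25.5 CPM in siCT and 32.9, 36.01 and 30.1 CPM in siPRMT1 in ethanol and 23.4, 31.7 and 27.7 CPM in siCT and 30.6, 28.97 and 28.8 CPM in siPRMT1 in R5020. For both genes the siCT libraries overlapped the siPRMT1 libraries in each arm. Their siPRMT1 effects were 0.17 and 0.07 for WEE1 and 0.12 and 0.09 for CDC25B on the log2 scale, in ethanol and R5020. The 95% intervals of the ethanol values ran from -0.23 to 0.58 and from -0.25 to 0.49, so a change of either sign within those bounds remains possible. CDC25C, a related phosphatase, was at 0.06 ± 0.19 and -0.13 ± 0.19.

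MYBL2 gave the largest fold change of any member in these 2 comparisons. Its siCT libraries read 44.1, 28.7 and 21.6 CPM in ethanol and 38.1, 55.9 and 51.5 CPM in R5020. Its siPRMT1 libraries read 11.7, 11.5 and 9.60 CPM and 17.2, 14.9 and 16.8 CPM. The lowest siCT library lay above the highest siPRMT1 library in both arms. MYBL2 was 2.88-fold lower in ethanol (-1.53 ± 0.23 on the log2 scale, edgeR adjusted p = 0.000571) and 2.98-fold lower in R5020 (-1.58 ± 0.23, 0.00058). It stayed called in both arms in all 12 fits that left out 1 library and under all 9 other settings tried. FOXM1, the forkhead factor that acts after B-MYB on the same promoters, read 45.4, 32.6 and 24.99 CPM in siCT and 31.6, 33.8 and 31.3 CPM in siPRMT1 with ethanol. In R5020 it read 30.9, 49.99 and 44.3 CPM in siCT and 37.5, 32.8 and 33.4 CPM in siPRMT1. The groups overlapped in both arms, at -0.09 ± 0.21 and -0.27 ± 0.21 on the log2 scale, and neither value was called. Without the pair of siCT libraries FOXM1 was called lower in R5020 (-0.44, edgeR adjusted p = 0.0201).

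Of the spindle checkpoint genes, whose proteins delay anaphase until every chromosome is attached, BUB1 and TTK were called higher in ethanol. BUB1, a kinase at the kinetochore, read 11.3, 14.2 and 10.9 CPM in siCT and 22.4, 21.5 and 21.1 CPM in siPRMT1 with ethanol. In R5020 it read 12.4, 14.8 and 15.1 CPM in siCT and 20.7, 21.1 and 19.8 CPM in siPRMT1. Its groups were apart in both arms, with log2 fold changes of 0.83 ± 0.14 (edgeR adjusted p = 0.00111) and 0.54 ± 0.14 (0.0142). TTK, the kinase MPS1 that starts the checkpoint signal, read 5.12, 9.85 and 6.40 CPM in siCT and 14.2, 11.9 and 13.8 CPM in siPRMT1 with ethanol, a change of 0.90 ± 0.21 (edgeR adjusted p = 0.0072). In R5020 its 9.04, 7.33 and 8.78 CPM in siCT overlapped the 10.1, 10.8 and 8.82 CPM in siPRMT1, at 0.24 ± 0.21 (0.418). MAD2L1 and BUB1B, which bind and hold CDC20, were at 0.57 ± 0.23 and 0.37 ± 0.14 in ethanol, with edgeR adjusted p = 0.0753 and 0.0641. BUB1B was called higher without the pair (0.39, 0.027), and DESeq2 called both in ethanol (0.047 and 0.0238). BUB3, their partner, was at 0.15 ± 0.18.

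The anaphase-promoting complex genes gave no siPRMT1 call in the fit over all 12 libraries, and each gave one without the pair. CDC20, the activator of the complex and the target of the checkpoint, read 24.4, 22.2 and 13.6 CPM in siCT and 15.998, 15.97 and 14.96 CPM in siPRMT1 with ethanol. It read 22.4, 35.9 and 34.7 CPM in siCT and 28.8, 25.3 and 24.8 CPM in siPRMT1 with R5020. In each arm the siCT library of the unlike pair read below all 3 siPRMT1 libraries, and the other siCT libraries read above them. The siPRMT1 effect on CDC20 was -0.36 ± 0.22 in ethanol, and without the pair it was -0.56 and called lower (edgeR adjusted p = 0.00103), as it was in R5020 at -0.41 (0.00666). PTTG1, the securin that guards sister chromatids, was at 0.42 ± 0.21 and 0.52 ± 0.21, and was called higher in R5020 without the pair (0.39, edgeR adjusted p = 0.0375). UBE2C, the ubiquitin-conjugating enzyme of the complex, was at 0.43 ± 0.19 and 0.11 ± 0.19, and was called higher in ethanol without the pair (0.24, edgeR adjusted p = 0.0354).

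Of the 7 genes for the Aurora and Polo kinases and the chromosomal passenger complex, AURKB alone was called in the fit over all 12 libraries. AURKB, the catalytic subunit of the chromosomal passenger complex, read 8.67, 6.08 and 9.79 CPM in siCT and 4.48, 4.95 and 5.33 CPM in siPRMT1 with ethanol. In R5020 it read 8.80, 8.02 and 7.90 CPM in siCT and 5.23, 4.81 and 5.67 CPM in siPRMT1. Each siPRMT1 library lay below each siCT library of its arm, and AURKB fell 1.65-fold in ethanol (-0.73 ± 0.18, edgeR adjusted p = 0.00914) and 1.57-fold in R5020 (-0.65 ± 0.18, 0.0191). The other subunits of the same complex gave no call in that fit: INCENP, its scaffold, was at 0.32 ± 0.14 in ethanol, BIRC5 (survivin) at 0.27 ± 0.25 and CDCA8 (borealin) at -0.01 ± 0.23. In R5020 these 3 were at 0.22, 0.21 and -0.06. INCENP was called higher in ethanol without the pair (0.36, edgeR adjusted p = 0.0426) and by DESeq2 (0.0427). Whether AURKB differed from its partners was not tested. AURKA, the spindle pole kinase, was at 0.50 ± 0.20 and 0.21 ± 0.20, and PLK1, a kinase of mitotic entry and exit, at 0.25 ± 0.23 and 0.34 ± 0.23. AURKA was likewise called higher in ethanol without the pair (0.30, edgeR adjusted p = 0.0167) and by DESeq2 (0.037). PLK4, which starts centriole duplication, lay on the other side, at -0.17 ± 0.20 and -0.49 ± 0.20 (edgeR adjusted p = 0.522 and 0.0857).

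At the kinetochore, CENPE, a kinesin that carries chromosomes to the spindle equator, was called in ethanol, from a mean of 3.22 ± 1.58 CPM in siCT to 6.72 ± 0.526 CPM in siPRMT1 (SD, n = 3 each). Its log2 fold change was 1.10 ± 0.31 (edgeR adjusted p = 0.017), against 0.73 ± 0.31 (0.0996) in R5020, where it was called without the pair (0.96, 0.0161). The NDC80 complex grips the microtubule end, and its genes gave no call over all 12 libraries: NUF2 was at 0.47 ± 0.19, NDC80 at 0.11 ± 0.21 and SPC25 at 0.13 ± 0.23 in ethanol. CENPA, the histone variant that marks the centromere, was at 0.06 ± 0.23, and CENPF, which docks motors there, at 0.16 ± 0.15. Without the pair NUF2 (0.52, edgeR adjusted p = 0.0316) and CENPF (0.31, 0.0203) were called higher in ethanol, and DESeq2 called NUF2 there (0.0428). In R5020 the 5 genes ran from -0.16 for SPC25 to 0.28 for NUF2.

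Of the motors, KIF4A and KIF11 were called higher in ethanol. KIF4A, a chromosome-bound kinesin that also works on the central spindle, read 3.24, 3.39 and 2.95 CPM in siCT and 4.89, 4.90 and 5.31 CPM in siPRMT1. With R5020 it read 2.99, 3.80 and 3.69 CPM in siCT and 4.10, 4.70 and 4.41 CPM in siPRMT1. The groups were apart in both arms, at 0.65 ± 0.16 (edgeR adjusted p = 0.00833) and 0.33 ± 0.16 (0.138). KIF11, the motor that pushes spindle poles apart, was at 0.60 ± 0.17 (0.0154) in ethanol and 0.30 ± 0.17 in R5020. KIF2C, which takes microtubules apart, and KIF20A, a cytokinesis motor, were at 0.34 ± 0.18 and 0.15 ± 0.19 in ethanol and 0.09 and 0.02 in R5020. KIF23, described with R5020 further on, was at 0.24 ± 0.13 in ethanol and -0.22 ± 0.13 in R5020, with the groups apart in opposite directions and no call.

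HMMR and NUSAP1 were the spindle proteins called in ethanol. HMMR, which helps build the spindle with TPX2, read 9.59, 14.1 and 8.91 CPM in siCT and 19.8, 17.96 and 19.1 CPM in siPRMT1. In R5020 it read 10.7, 11.4 and 11.03 CPM in siCT and 14.4, 18.2 and 13.99 CPM in siPRMT1. The groups were apart in both arms, at 0.80 ± 0.18 (edgeR adjusted p = 0.00524) and 0.49 ± 0.18 (0.0589), the latter called without the pair (0.48, 0.0418). NUSAP1, a microtubule binder at the spindle, was at 0.65 ± 0.18 (0.0154) and 0.44 ± 0.18 (0.0838). DLGAP5, which steadies kinetochore fibres, was at 0.36 ± 0.20, TPX2 at 0.16 ± 0.17, and the cytokinesis proteins PRC1 and ANLN at 0.24 ± 0.12 and 0.16 ± 0.15 in ethanol. ASPM, a spindle pole protein, was at 0.12 ± 0.26. These 5 ran from -0.23 for ASPM to 0.24 for DLGAP5 in R5020, where TPX2 was called lower without the pair (-0.33, edgeR adjusted p = 0.0161). DESeq2 called PRC1 higher in ethanol (0.0398).

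MKI67, whose product Ki-67 coats mitotic chromosomes and is the usual stain for dividing tumour cells, read 75.8, 73.6 and 97.2 CPM in siCT and 103, 112 and 103 CPM in siPRMT1 with ethanol. With R5020 it read 109, 99.5 and 101 CPM in siCT and 122, 109 and 114 CPM in siPRMT1. The groups were apart in ethanol, where the change was 0.37 ± 0.14 (edgeR adjusted p = 0.061), and overlapped in R5020, at 0.15 ± 0.14. Without the pair the ethanol value was 0.52 and called (0.000531). TOP2A, the topoisomerase that untangles sister chromatids, was at 0.42 ± 0.17 (0.0737) and 0.05 ± 0.17. DESeq2 called both genes higher in ethanol (0.00926 for MKI67 and 0.0362 for TOP2A).

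**Figure D2:**
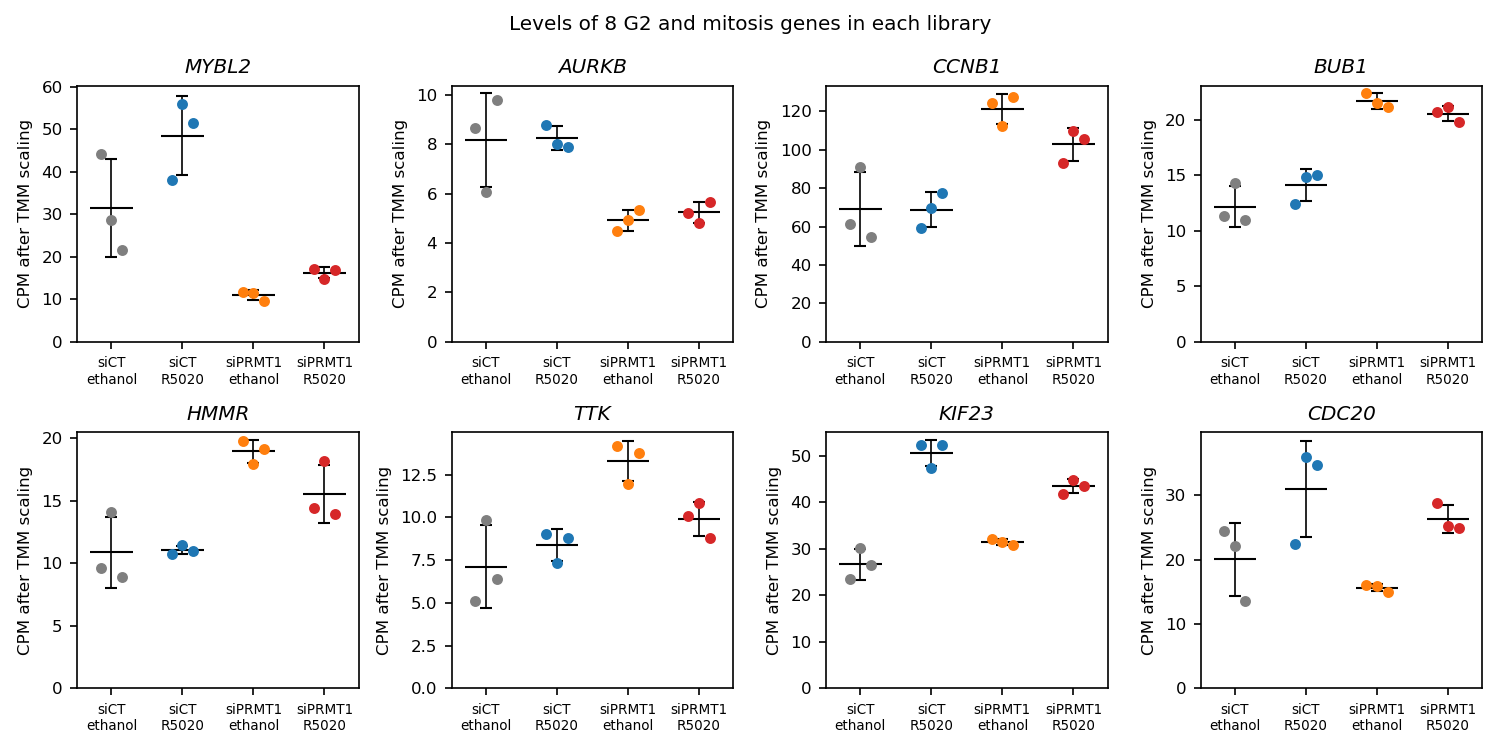
CPM after TMM scaling of 8 of the genes in each of the 12 libraries; points are libraries, long bars group means and error bars the SD over 3 libraries. MYBL2 and AURKB are low in both siPRMT1 groups, CCNB1 and BUB1 are high in both, and KIF23 is high in both R5020 groups.

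The 12 siPRMT1 calls in ethanol did not all hold when 1 library was left out. MYBL2, BUB1, TTK, CCNB1, AURKB, KIF4A and HMMR stayed called in all 12 such fits. CENPE was lost without siPRMT1 ethanol replicate 3 (edgeR adjusted p = 0.0563), NUSAP1 without siPRMT1 ethanol replicate 1 (0.0654), and KIF11 without siPRMT1 ethanol replicate 3 (0.0634) or siCT ethanol replicate 1 (0.05002). CDK1 was lost without any of 7 libraries: siCT ethanol replicate 1, siCT R5020 replicate 2, each siPRMT1 ethanol library, and siPRMT1 R5020 replicates 1 and 3 (edgeR adjusted p = 0.0526 to 0.126). CCNA2 was lost without any of 9: siCT ethanol replicates 1 and 3, siCT R5020 replicate 2 and each siPRMT1 library (0.0564 to 0.12). The number called higher moved from 10 to 18 without siCT ethanol replicate 2, while the share of all genes moved from 13.6% to 19.2%. It moved to 6 without siPRMT1 ethanol replicate 3, with 7.7% of all genes. DESeq2 called 18 higher, against 14.7% of all genes. Without the pair, 17 were called higher and 3 lower, all 12 among them, against 20.2% and 24.3% of all genes. A fit of the ethanol groups alone called BUB1, HMMR, CCNB1, TTK and KIF4A higher and MYBL2 lower, against 7.54% and 12% of all genes. With library totals alone in place of TMM, which moved the median of all genes by 0.18, BUB1, TTK, CENPE and MYBL2 kept their calls and the other 8 members lost theirs.

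In R5020, where 4 members were called for siPRMT1, MYBL2 held in all 12 such fits. BUB1 was lost without siCT R5020 replicate 1 (edgeR adjusted p = 0.0541) or siPRMT1 R5020 replicate 2 (0.057). AURKB was lost without those same libraries (0.0539 and 0.0836) or siPRMT1 R5020 replicate 1 (0.0603). CCNB1 was lost without any siPRMT1 library, siCT R5020 replicate 1 or siCT R5020 replicate 2 (0.0556 to 0.124). More members passed without a siCT ethanol library: 4, 6 and 7 were called higher without replicates 1, 2 and 3, against 13.2%, 14.8% and 17.4% of all genes. Without the pair 6 were called higher and 5 lower, against 19.3% and 19.6% of all genes; the members added on the lower side were CDC20, TPX2 and FOXM1. A fit of the R5020 groups alone called 7 higher and 3 lower, against 16.3% and 18.9%, while library totals alone left MYBL2 as the only call.

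Few members passed the test for R5020. In siCT cells 1 of the 44 was called higher and 0 lower by edgeR, against 7.59% and 5.43% of all genes and 13% in either direction. At an unadjusted p under 0.05 there were 7, all higher; DESeq2 (7.48% of all genes higher and 5.36% lower) and limma voom with quality weights (7.01% and 4.55%) each called 2 members higher and 0 lower. The members' median log2 fold change was 0.12, against -0.04 over all genes, and for 4 members (BUB1B, KIF23, MKI67 and PRC1) the R5020 libraries all lay above the ethanol libraries, against 10.5% of all genes, with 0 members below, against 10.3%. In siPRMT1 cells 2 members were called higher and 0 lower, against 9.3% and 6.08% of all genes and 15.4% in either direction, with 3 higher and 3 lower at an unadjusted p under 0.05. There DESeq2 called 2 higher and 0 lower, against 8.58% and 6.2% of all genes. Voom called 6 higher and 11 lower, against 23.7% and 22.5% of all genes. The median was -0.07, against -0.00.

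KIF23 was the member called with R5020 in both siRNA arms. It encodes the motor subunit of centralspindlin, which bundles the central spindle and directs the cleavage furrow. In siCT it read 23.4, 30.1 and 26.6 CPM in ethanol and 52.4, 47.3 and 52.3 CPM in R5020. In siPRMT1 it read 32.1, 31.5 and 30.9 CPM and 41.9, 44.9 and 43.6 CPM. The R5020 libraries lay above the ethanol libraries in each arm, and the rise was 1.90-fold in siCT (0.92 ± 0.13 on the log2 scale, edgeR adjusted p = 0.00023) and 1.38-fold in siPRMT1 (0.47 ± 0.13, 0.0231). In siCT the call held in all 12 fits that left out 1 library and in all 9 other settings, with edgeR adjusted p = 0.029 when only the siCT groups were fitted. That fit called KIF23 alone, against 3.75% of all genes higher and 1.54% lower.

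CDC20 was called with R5020 in siPRMT1 cells, from the 15.998, 15.97 and 14.96 CPM given above to 28.8, 25.3 and 24.8 CPM, a 1.68-fold rise (0.75 ± 0.22, edgeR adjusted p = 0.0317). In siCT its change was 0.63 ± 0.22 (0.0782), with siCT R5020 replicate 1 inside the range of the ethanol libraries. MYBL2 was not called in either arm, at 0.62 ± 0.23 (0.0947) in siCT and 0.57 ± 0.23 (0.128) in siPRMT1, where its libraries did not overlap. The other members with an unadjusted p under 0.05 in siCT were PRC1 (0.35), MKI67 (0.33), BUB1B (0.32) and TPX2 (0.39). The 7 genes for the cyclins, CDK1 and its regulators all lay below 0 in siCT, from -0.14 for WEE1 to -0.00 for CCNB1, and 0 were called by edgeR, DESeq2 or voom, or passed at an unadjusted p under 0.05.

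**Figure D3:**
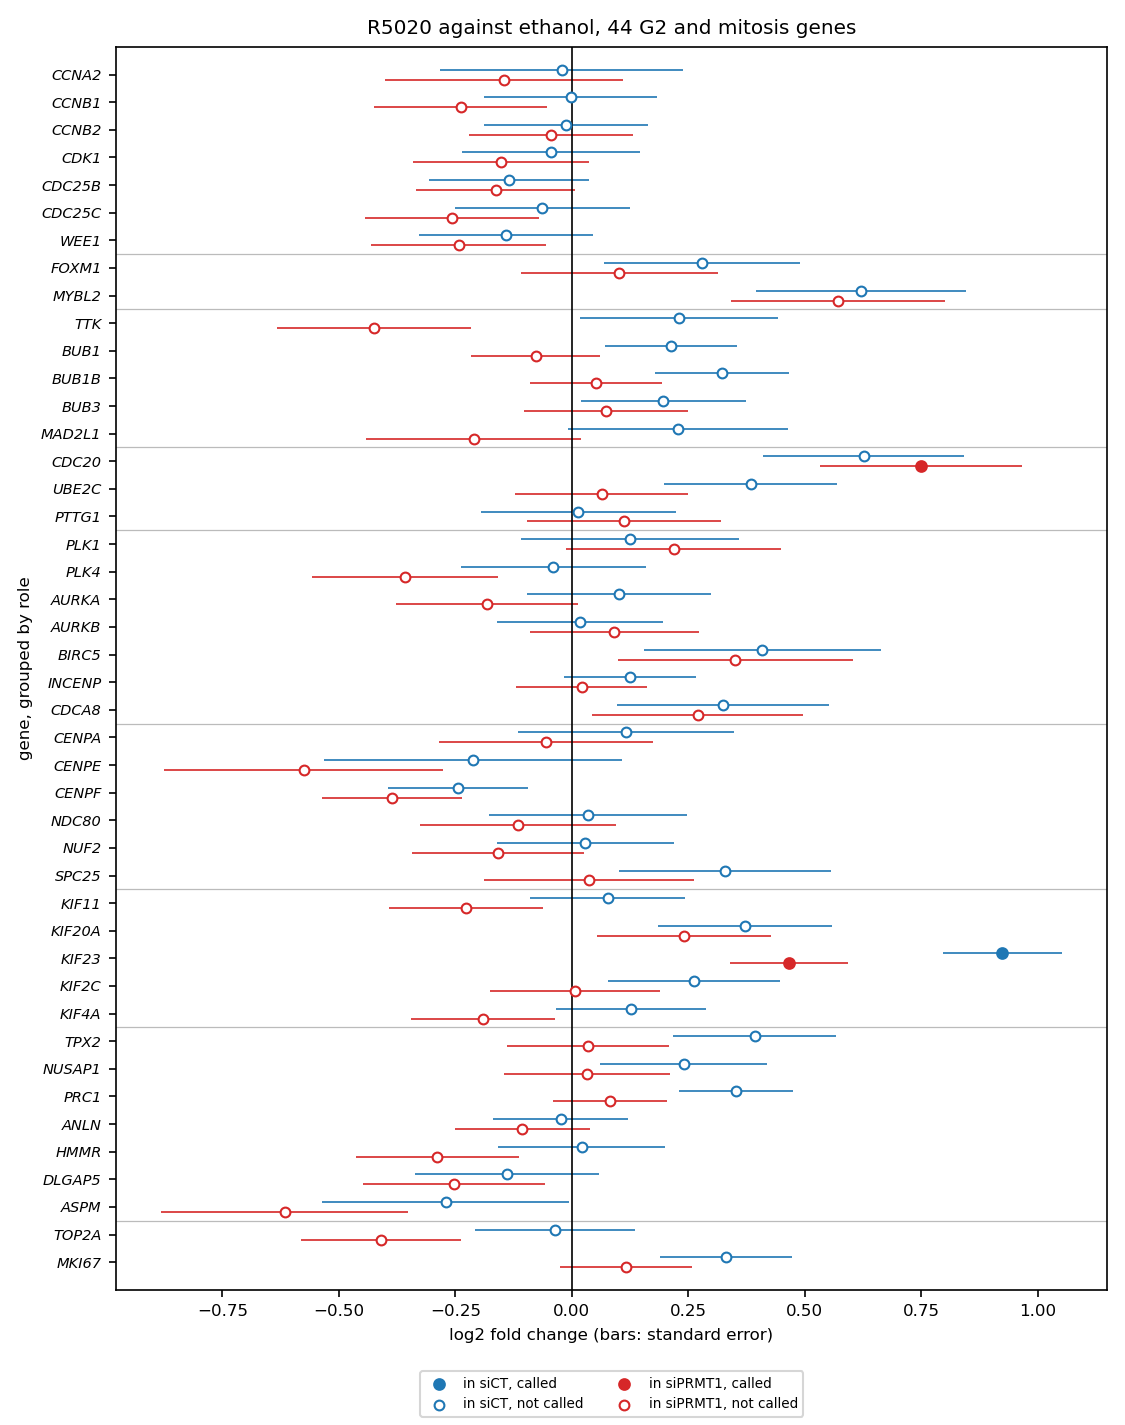
Log2 fold change of R5020 against ethanol for the 44 genes, grouped by role as before, in siCT (blue) and siPRMT1 (red) cells. Bars are standard errors from the fit of all 12 libraries, which shares 1 spread among the groups of 3 libraries each. Filled points passed edgeR's test. KIF23 lies at 0.92 and 0.47, CDC20 at 0.63 and 0.75, and ASPM is lowest in siPRMT1 cells at -0.62.

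In siPRMT1 cells the libraries of a group lay close together, and 7 members read higher and 14 read lower in all 3 R5020 libraries than in all 3 ethanol libraries, against 27.6% and 25.5% of all genes. ASPM had the most negative value of these, with a mean of 32.3 ± 2.51 CPM in ethanol and 21.1 ± 2.17 CPM in R5020 (SD, n = 3 each). On the log2 scale its change was -0.62 ± 0.27 (edgeR adjusted p = 0.16), followed by CENPE at -0.58 ± 0.30, TTK at -0.42 ± 0.21, TOP2A at -0.41 ± 0.17 and CENPF at -0.39 ± 0.15. None of these was called in the fit that shares 1 spread among all groups. A fit of the siPRMT1 groups alone called 6 members higher (CDC20, KIF23, MYBL2, BIRC5, KIF20A and CDCA8) and 12 lower (ASPM, CENPF, TOP2A, CENPE, TTK, WEE1, CCNB1, KIF11, HMMR, PLK4, AURKA and DLGAP5), against 23.9% and 22.7% of all genes. In that fit ASPM had an edgeR adjusted p = 5.5e-06 and CCNB1 0.00615 at -0.25. This fit uses the small spread of the siPRMT1 libraries alone. Both calls of the shared fit, KIF23 and CDC20, were lost when any 1 of the 6 siPRMT1 libraries was left out (edgeR adjusted p = 0.0581 to 0.0958 for KIF23 and 0.0689 to 0.123 for CDC20).

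In siCT cells the count of R5020 calls depended on the siCT libraries. Without siCT ethanol replicate 1 it was 4, with MYBL2, CDC20 and PRC1 added, and without siCT ethanol replicate 2 it was 4, with TTK, TPX2 and NUSAP1 added, against 9.26% and 8.16% of all genes. It was 2 without siCT ethanol replicate 3, with MKI67 added, and 3 without siCT R5020 replicate 1, with MYBL2 and CDC20 added, against 9.59% and 7.71%. With both libraries of the pair left out, 7 members were called higher and 0 lower, against 10.9% and 8.95% of all genes: KIF23 (0.89, edgeR adjusted p = 0.000262), CDC20 (0.60), MKI67 (0.42), TPX2 (0.37), MYBL2 (0.55), UBE2C (0.29) and PRC1 (0.29). In siPRMT1 cells the same fit called CDC20, KIF23, BIRC5 and MYBL2 higher and CENPF and ASPM lower, against 15.8% and 13.3% of all genes.

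The interaction asks whether the R5020 effect differed between siPRMT1 and siCT cells. It was called for 0 of the 44 members, against 0.0451% of all genes higher and 0.0338% lower, 0.079% in all. At an unadjusted p under 0.05 edgeR gave 2 members, and DESeq2 and voom also called 0. Without the pair it was again 0, against 0.306% and 0.473% of all genes. The values nonetheless leaned 1 way: 40 of the 44 were negative, with a median of -0.19 against 0.04 over all genes. A negative value means that the R5020 effect was lower with siPRMT1 than with siCT, and equally that the siPRMT1 effect was lower in R5020 than in ethanol. KIF23 had the smallest p (-0.46 ± 0.18, unadjusted p = 0.0237, edgeR adjusted p = 0.977), from the 1.90-fold rise in siCT and the 1.38-fold rise in siPRMT1. TTK came next at -0.65 ± 0.30 (unadjusted p = 0.0465), where siPRMT1 with R5020 read 10.1, 10.8 and 8.82 CPM against 14.2, 11.9 and 13.8 CPM with ethanol. PRC1, the central spindle protein that KIF4A carries to microtubule ends, followed at -0.27 ± 0.17 (unadjusted p = 0.142). Its libraries read 33.6, 31.9 and 27.3 CPM in siCT ethanol, 38.3, 39.4 and 40.9 in siCT R5020, 34.9, 38.9 and 36.1 in siPRMT1 ethanol and 37.8, 39.1 and 39.5 in siPRMT1 R5020. The siCT ethanol libraries of PRC1 were the lowest and the other 3 groups overlapped. All 44 values share the same 4 groups of libraries, so their common sign is not 44 separate observations. The 44 values also went with transcript length, as given further on.

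Other genes of the cell cycle were counted from lists chosen with the study's results known. Of 74 other G2 and mitosis genes, siPRMT1 in ethanol called 19 higher and 5 lower, shares of 25.7% and 6.76% that lie near the members' 22.7% and 4.55%. Over all genes the shares were 13.6% and 19.2%. KIF14 (0.83, edgeR adjusted p = 0.00373), a midbody motor, and ECT2 (0.82, 0.00497), the exchange factor that opens cytokinesis, led the higher genes. Those lower were CIT (-1.04, 0.000987), the citron kinase of the midbody, FZR1 (-0.79), PKMYT1 (-1.13), NCAPD2 (-0.43) and KIF18B (-0.65). FZR1 is the second activator of the anaphase-promoting complex and PKMYT1 a kinase that restrains CDK1. In R5020 the same list had 4 higher (ECT2, NEK7, NCAPD3 and PBK) and 9 lower, led by CIT (-1.28, 0.000349), KIFC1 (-0.78, 0.0046) and CDC25A (-1.20, 0.00547), the phosphatase of the G1 to S step. These counts are 5.41% and 12.2% of the list, against 11.5% and 14.2% of all genes. R5020 itself called 6 higher and 0 lower in siCT by edgeR, with 2 lower at an unadjusted p under 0.05 and 0 lower by DESeq2 and voom. The 6 higher genes were led by NCAPD3 (0.60, 0.00318), TACC3 (0.85, 0.00538) and CENPO (0.61, 0.0233). Their share of 8.11% lies near the 7.59% of all genes called higher, and 5.43% of all genes were called lower. In siPRMT1 cells R5020 called 3 higher and 2 lower, the latter PSRC1 (-0.62, 0.0283) and CCNF (-0.56, 0.0399). Those are 4.05% and 2.7% of the list, against 9.3% and 6.08% of all genes.

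The 45 DNA replication genes, which act in the S phase before, gave other counts in the same libraries. R5020 called 21 of them higher in siCT (46.7%) and 0 lower, and 7 higher in siPRMT1 (15.6%) and 0 lower, by edgeR. DESeq2 and voom also called 0 lower in both, and 0 were lower at an unadjusted p under 0.05 by edgeR. Over all genes edgeR called 7.59% higher and 5.43% lower in siCT, and 9.3% and 6.08% in siPRMT1. GINS2 (2.71 in siCT and 2.50 in siPRMT1), a part of the replicative helicase, rose most. E2F1 (1.52 and 0.78), a transcription factor counted in this list, MCM5 (1.49 and 0.72) and POLE2 (1.31 and 1.05) were called in both arms as well. With siPRMT1 in R5020, 20 replication genes were lower by edgeR (44.4%) and by DESeq2, and 30 by voom. Over all genes edgeR called 11.5% higher and 14.2% lower, and DESeq2 and voom called 27.1% and 55.7% in either direction. With each tool 0 replication genes were higher, also at an unadjusted p under 0.05. The lower genes were led by E2F1 (-1.31, edgeR adjusted p = 0.000176), CDC6 (-1.14, 0.000285) and MCM5 (-0.95, 0.00141). In ethanol 7 were higher (15.6%) and 6 lower (13.3%), against 13.6% and 19.2% of all genes. The median interaction of this list was -0.34, with 0 called by any of the 3 tools and 12 at an unadjusted p under 0.05. The difference between the lists was not tested.

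The 19 regulators of G2 and mitosis transcription include MuvB, DREAM and E2F genes, but not E2F1, which was counted with the DNA replication genes. Of the 19, siPRMT1 in ethanol called TFDP1 (0.68, edgeR adjusted p = 0.0251), E2F5 (0.63, 0.0432) and RBBP4 (0.45, 0.0452) higher and E2F4 (-0.57, 0.0132) lower. The shares were 15.8% higher and 5.26% lower, against 13.6% and 19.2% of all genes. E2F4 is the repressor E2F of DREAM and TFDP1 and RBBP4 are further parts of it. In R5020 the calls were CDKN1A higher (0.85, 0.0113) and E2F8 lower (-0.58, 0.0203), 5.26% each way, against 11.5% and 14.2% of all genes. CDKN1A encodes p21, the inhibitor through which p53 assembles DREAM. R5020 in siPRMT1 cells called CDKN1A (1.16, 0.00167) and E2F4 (0.48, 0.0497) higher, 10.5% of the list against 9.3% of all genes. In siCT it called 0 of the 19 by edgeR and DESeq2, with 2 at an unadjusted p under 0.05, and 1 by voom. Over all genes edgeR called 7.59% higher and 5.43% lower there. E2F1, outside this list, was called higher there.

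**Figure D4:**
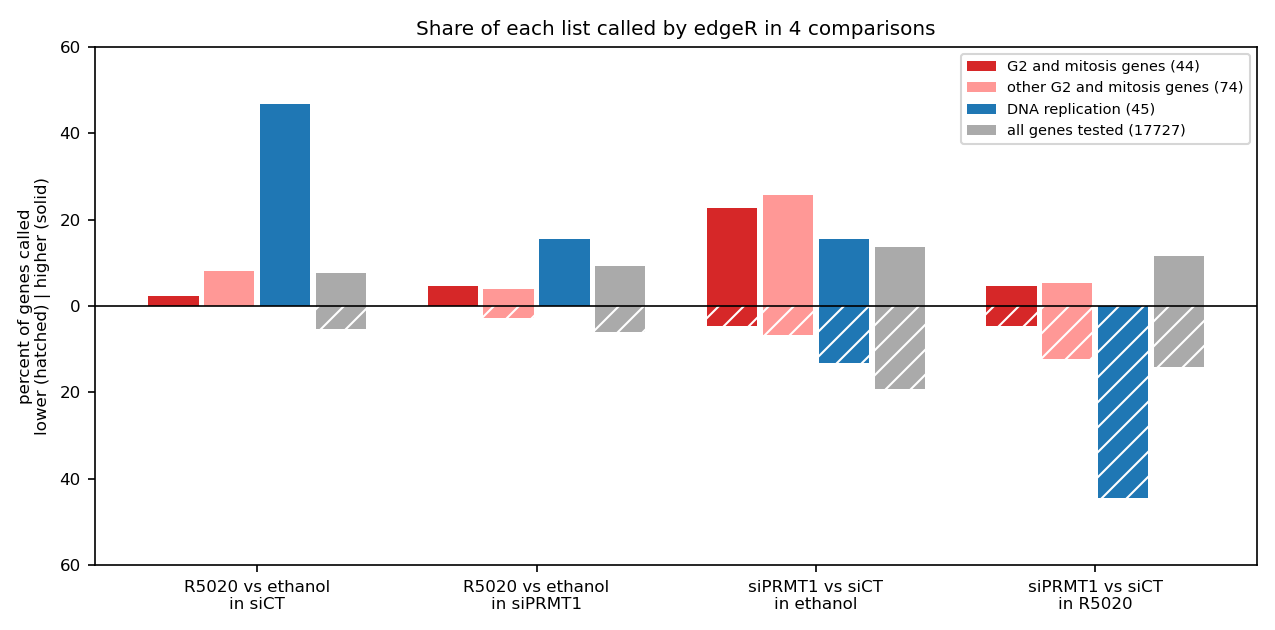
Percent of each gene list called by edgeR in the 4 comparisons, higher as solid bars above 0 and lower as hatched bars below it; grey bars are all 17727 genes tested. The 44 members and the 74 other G2 and mitosis genes are called higher most often for siPRMT1 in ethanol (22.7% and 25.7%), while the 45 DNA replication genes stand at 46.7% higher for R5020 in siCT.

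Several siCT libraries, the unlike pair among them, differed from the rest of their groups along transcript length. Among the 44 members, whose longest annotated or principal transcripts run from 850 bases for UBE2C to 12678 bases for MKI67, the difference between siCT ethanol replicate 3 and the mean of the other libraries of its group had Pearson r = 0.54 and Spearman rho = 0.51 with log length. For siCT R5020 replicate 1 the values were 0.46 and 0.42, while siCT ethanol replicate 1 gave values of opposite sign, -0.47 and -0.42. The Pearson values of siCT R5020 replicates 2 and 3 were -0.36 and -0.39. Each library is set against the others of its group, so opposite signs within a group are not separate observations. Over 14264 genes with a length, 80.5% of those tested, the Pearson values were 0.17 and 0.10 for the pair and -0.19 for siCT ethanol replicate 1. These are correlations across genes within a library, and genes are not independent replicates. CENPE (0.99 in the first library and 0.58 in the second, on the log2 scale), ASPM (0.77 and 0.61) and CENPF (0.41 and 0.30), all with long transcripts, read high there. BIRC5 (-1.12 and -0.65), CCNA2 (-0.96 and -0.88) and CDC20 (-0.77 and -0.65) read low. The members' R5020 effects in siPRMT1 cells, which involve neither library of the pair, also went with length, at Pearson r = -0.37 and Spearman rho = -0.33. Over all genes these values were -0.04 and -0.09. For the members' interaction, in which the pair takes part, they were -0.35 and -0.42, against 0.009 and 0.012 over all genes. The part of transcript length in these results was not tested.

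**Figure D5:**
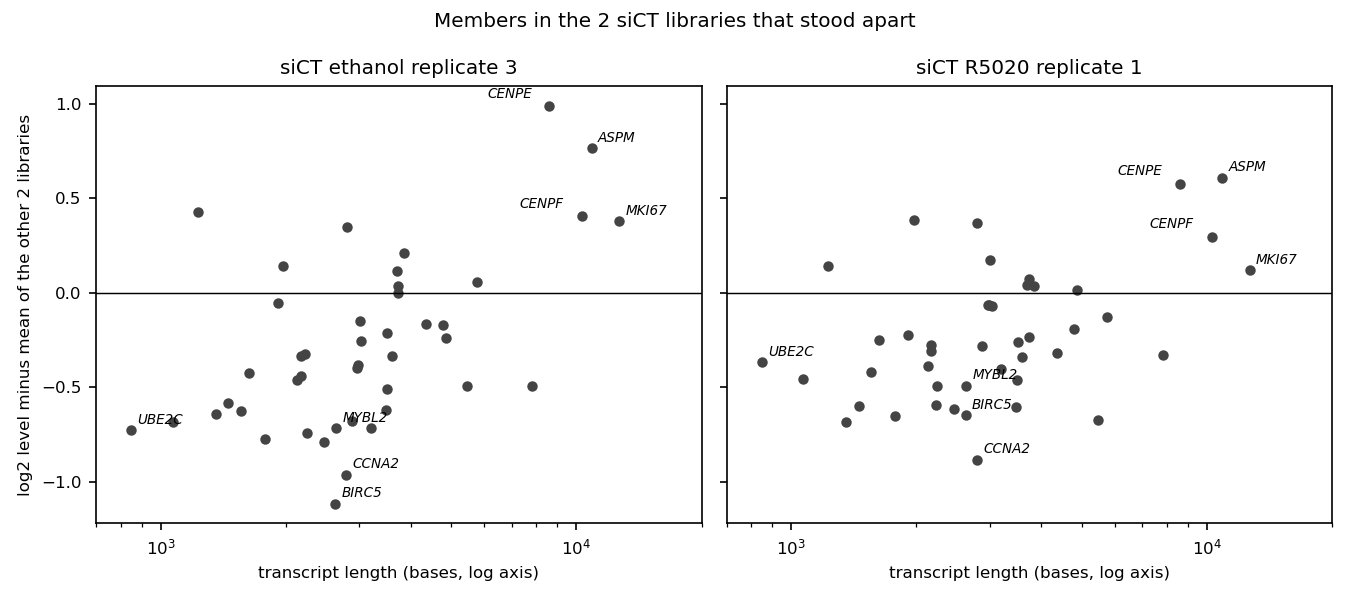
For each of the 44 genes, the log2 level in siCT ethanol replicate 3 or siCT R5020 replicate 1 minus the mean of the other libraries of its group (vertical axis), against transcript length in bases on a log axis. CENPE, ASPM, CENPF and MKI67, the longest, lie above 0 in both libraries, and most shorter transcripts lie below it.

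The authors' deposited table of comparisons gave the same direction for the called members. For siPRMT1 in ethanol it listed 9 members higher and 1 lower at an adjusted p under 0.05, against 8.85% and 11% of its genes. Of the 12 edgeR calls, 10 were also calls there; CDK1 (0.57, adjusted p = 0.0774 in the authors' deposited table) and AURKB (-0.62, 0.0565) missed the threshold. The authors' deposited table gave MYBL2 at -1.35 in ethanol and -1.49 in R5020. In R5020 it listed 8 higher and 2 lower, against 15.3% each way. Those higher were BUB1, CCNB1, CCNA2, CENPE, PTTG1, NUSAP1, HMMR and CDK1 (0.44, adjusted p = 0.0354 in the authors' deposited table). For R5020 in siCT the authors' deposited table had KIF23 alone (0.88, adjusted p = 0.00164), against 4.54% higher and 2.07% lower. In siPRMT1 cells it had 6 higher and 10 lower, against 18.6% and 15%, among them ASPM (-0.61) and CENPF (-0.38) lower and CDC20 (0.74) higher.

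Set against the promoter letters shown at the start, 3 members had no match to the searched CHR spellings in any window. Of these CCNA2 rose with siPRMT1 in ethanol. The other 2, MYBL2 and AURKB, were the members that fell with siPRMT1 in the fit over all 12 libraries. This holds for that fit alone: without the pair CDC20, which has a CHR match, was also called lower in both arms, and TPX2 and FOXM1, which have no window, in R5020. The other members called higher in ethanol that had a window, BUB1, HMMR, CCNB1, KIF4A, KIF11, NUSAP1, CENPE and CDK1, all had a CHR match, as did the members with a window that were not called. TTK had no window. The list of members was chosen with results of these data known and so few fell that this is a description of the windows, with no test. The 2 windows of AURKB overlap, with an ATG just past the start in the one shown. Its lack of a match to the CHR spellings therefore depends on the starts listed, and no relation to its fall can be read from it. Sequence outside the windows and other spellings were not searched.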

How the data were processed

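RNA-seq libraries of T47D cells were made from TRIzol-extracted RNA with the Lexogen SENSE mRNA-Seq kit, per the labels' protocols. The authors deposited raw read counts per gene symbol for each of 12 libraries. The submitters' processing notes name Bowtie2 2.3.2.2, HTSeq 0.9.1, DESeq2 and the build hg19; the role of each, the annotation and the strand setting are not stated there, so reads of overlapping antisense genes cannot be told apart. Per the file headers, a table that the authors deposited gives log2 fold changes with p-values and adjusted p-values for the same 4 contrasts. A call there is an adjusted p under 0.05.

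Counts were fitted with edgeR 4.0.16 in R 4.3.3: low genes were removed with filterByExpr (17727 of 55765 kept), libraries were TMM-scaled, the 12 libraries were fitted together with a mean for each group, and quasi-likelihood tests were adjusted by Benjamini-Hochberg over all genes tested. Intervals are 95%. Scripts were tested on simulated counts. The 44 members and the gene lists were chosen with earlier results of these data known. Library values are given for up to 6 called members per comparison with the smallest adjusted p, or the 3 smallest where none was called, and for CCNB1, CDK1, MYBL2, FOXM1, MKI67, WEE1 and CDC25B; from the other lists up to 3 called genes per comparison and those against the list's majority are named. The p-values reflect the spread among libraries only. CPM values are not divided by gene length and are compared between libraries, not between genes. Promoter sequences are RefSeq's, in another build than the counts. Alternatives tried were library totals alone, RLE scaling, no filter, DESeq2 1.42.0, limma 3.58.1 voom with quality weights, no mitochondrial genes, only the groups compared, the pair left out, a replicate block, and leaving out each library. No 2 libraries were duplicates. The labels do not say that replicate numbers pair the samples. Of 18 same-numbered pairs 3 had deviations correlated above 0.1. These correlations include the unlike siCT libraries, so they cannot exclude a pairing.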

Additional observations from a re-analysis of the deposited data

How the results depend on the processing

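No called member changed direction under any alternative run; of 4576 single-member values 4367 kept their side of the threshold, 140 gained a call and 69 lost it. For siPRMT1 in ethanol (10 higher, 2 lower), library totals alone gave 4 and 1, only the groups compared 5 and 1, DESeq2 18 higher, and the fit without the pair 17 higher; leaving out 1 library gave 6 to 18 higher. For siPRMT1 in R5020 (2 and 2), library totals alone gave 0 and 1, no filter 4 higher, only the groups compared 7 higher, voom 11 and 8, and the fit without the pair 6 and 5; leaving out 1 library gave 0 to 7 higher and 1 to 3 lower. For R5020 in siCT (1 higher), DESeq2 and voom gave 2, no filter 3 and the fit without the pair 7; leaving out 1 library gave 1 to 4. For R5020 in siPRMT1 (2 higher, 0 lower), library totals alone gave 0 and 1, no filter 1 higher, only the groups compared 6 and 12, voom 6 and 11, and the fit without the pair 4 and 2; leaving out 1 library gave 0 to 3 higher and 0 to 1 lower. The cause was not tested, other than that leaving out libraries or groups removes samples from the fit. The interaction gave 0 members under every setting run.

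The replicate block used replicate numbers that are not known to pair the samples: 0 of 12 libraries correlated best with its own number in every other group. It gave 0 members higher for R5020 in siPRMT1 and 1 higher for siPRMT1 in R5020. Scaling by library totals alone moved the median of all genes by 0.18 for siPRMT1 in ethanol, -0.17 for R5020 in siPRMT1 and -0.14 for the interaction; the members' median relative to all genes was then 0.30, -0.06 and -0.22, against 0.33, -0.06 and -0.23. Over all genes, the number called moved by more than 1.5 times as follows. R5020 in siCT went from 2308 to 898 with only the groups compared and 3568 without the pair. R5020 in siPRMT1 went from 2725 to 7813, 5226 and, with voom, 8179. siPRMT1 in ethanol went from 5806 to 3324 with only the groups compared, 3021 with library totals alone and 3487 to 3775 without 1 siPRMT1 ethanol library. siPRMT1 in R5020 went from 4559 to 2429 with library totals alone, 9866 with voom, 6992 without the pair and 2332 to 2892 without 1 siPRMT1 R5020 library. The interaction went from 14 to between 0 and 140. With library totals alone the calls were 897 higher and 1167 lower for R5020 in siPRMT1, against 1648 and 1077, and 744 and 1685 for siPRMT1 in R5020, against 2046 and 2513. Member medians moved by less than 0.173, the SD between replicates, under every setting run. Low members such as CDC25C (mean 3.02 CPM) have the least precision.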
